A study of Homo sapiens with 24 samples.

Results

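MALAT1, NEAT1, H19 and KCNQ1OT1 are long noncoding RNAs (lncRNAs), RNAs that work without being translated. Their N6-methyladenosine (m6A), a methyl mark on adenosines inside RNA, was followed in HepG2 cells, an established liver cancer line. The 4 genes were chosen by name, with earlier results of these data known. Every deposited m6A peak summit inside the RefSeq span of each gene was counted on hg38. They were 4 of 59792 RefSeq genes with a span, and they held 63 of the 155075 summits of the series.

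The study transduced HepG2 with lentivirus that expressed METTL14 with the substitution R298P, METTL14 with the substitution D312A, wild-type METTL14 (WT) or EGFP. All 4 lines share transduction and selection in puromycin at 3 µg/ml for 8 days. The labels name neither the promoter of the cassette nor a removal of the cells' own METTL14. Each line had 3 biological replicates, and each replicate gave an immunoprecipitated and an input sample, 24 samples in all. Poly(A) RNA was cut to fragments of about 120 nt, bound with an anti-m6A antibody and sequenced, and 1 list of summits was deposited for each of the 12 immunoprecipitated libraries.

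METTL14 is the partner of METTL3, the enzyme that writes m6A while RNA is made in the nucleus. MALAT1 sits in nuclear speckles, bodies rich in splicing factors, and is known for m6A in hairpins that open when methylated and expose a binding site for the protein HNRNPC. NEAT1 is the scaffold of paraspeckles and comes as a short and a long isoform that share their 5′ end. H19 and KCNQ1OT1 are imprinted, which means that 1 parental copy is expressed: H19 from the maternal copy, KCNQ1OT1 from the paternal copy, where it silences neighbouring genes. MALAT1 and the long NEAT1 isoform end in a triple helix and not in a poly(A) tail. The lists measure neither where an RNA sits in the cell nor the copy it came from, so the nuclear and imprinted nature of the 4 RNAs is background here.

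The lists held 8669 to 15373 summits, and the number of reads behind them is unknown. By replicate, R298P lists held 11960, 11590 and 13721 and D312A lists 12357, 8669 and 12350. WT lists held 14797, 12620 and 15114, and EGFP lists 15373, 13859 and 12665. For genes other than the 4 members, the part of list length in differences between lines was not tested. Each of the 9 hepatocyte markers examined held a summit in at least 1 library, but only HNF4A in all 12. ALB and AFP held 0 in D312A replicate 3 and EGFP replicate 2, and AFP also in R298P replicate 2. A summit in at least 1 library was held by 1 of 5 fibroblast markers, 2 of 4 endothelial markers and 1 of 4 blood cell markers. The names given to the lists mark the libraries numbered 1 differently from those numbered 2 and 3, in all 4 lines, and several results below differ along that division.

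H19 gives rise to a microRNA, miR-675, from its first exon. Its 2 mature arms are printed to show the RNA that the H19 span carries besides the lncRNA. They are given as in RefSeq (GRCh38.p14, chr11:1996759-1996831 for the hairpin, minus strand), 5′ to 3′, with the seed (bases 2 to 8), which pairs with targets, in capitals. The seeds of both arms differ.
hsa-miR-675-5p: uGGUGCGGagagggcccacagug
hsa-miR-675-3p: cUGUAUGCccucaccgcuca

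NEAT1 was the member with the most summits. Its span (chromosome 11, 65422798 to 65445540, 22743 nt) held 36 summits over the 12 libraries and at least 1 in every library. R298P libraries 1, 2 and 3 held 6, 2 and 3 summits. D312A libraries held 4, 1 and 2. WT libraries held 4, 1 and 2, and EGFP libraries 6, 3 and 2. The 4 lines overlapped: replicate 1 was the highest library of each, and the lowest value was 1 or 2.

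The mean number of NEAT1 summits was 3.67 ± 2.08 in R298P, 2.33 ± 1.53 in D312A, 2.33 ± 1.53 in WT and 3.67 ± 2.08 in EGFP (SD, n = 3 each). R298P and EGFP had the same mean and D312A and WT the same lower mean, and the step between them was smaller than the spread, much of which lay between replicate 1 and the others in every line. R298P minus WT was 1.33 summits (exact permutation test, two-sided, p = 0.6; adjusted p = 1.0 over 11425 genes). Within replicate numbers R298P was above WT in 3 of 3 and above D312A in 3 of 3 (exact p = 0.25 each, the smallest that sign changes within 3 numbers allow). R298P minus WT was 0.167 without R298P replicate 1, and 0.333 with lists of equal length. Lines accounted for 16.7% of the variance of NEAT1 among the 12 libraries (exact test over partitions, p = 0.679, adjusted p = 1.0 over 12977 genes; exact p = 0.0833 with partitions kept within replicate numbers). In the authors' deposited table of input RNA, which compares WT with R298P by edgeR, NEAT1 had a log2 fold change of 0.19 (adjusted p = 0.569). Which of the lines is the numerator there is not stated. FRMD8, the protein-coding neighbour of NEAT1, held 3, 2 and 3 summits in R298P, 3, 2 and 2 in D312A, 2, 3 and 4 in WT, and 3, 3 and 4 in EGFP, without the surplus in replicate 1 described next.

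The libraries numbered 1 held more NEAT1 summits than any other. Replicate 1 of R298P, D312A, WT and EGFP held 6, 4, 4 and 6, and the 8 libraries of replicates 2 and 3 held between 1 and 3, with means of 5.0 ± 1.15 (SD, n = 4) and 2.0 ± 0.756 (SD, n = 8). Of the 12977 genes with a summit, 0.385% had libraries 1 wholly above the rest in this way and 0.0848% wholly below. When each library was held to its top 8669 summits, the length of the shortest list, the pattern was gone: replicate 1 of R298P, D312A, WT and EGFP then held 1, 1, 1 and 0. The summits kept there in R298P, D312A and WT lay at 2208, 2176 and 2219 nt from the start of the span. They were placed 39.1%, 67.3% and 41.9% of the way down their lists. The replicate 1 summits at 1679 to 1685 nt, a site held by all 12 libraries, were placed at 72.5% to 88.4% and fell out. The surplus in replicate 1 was thus not made only of summits low in their lists.

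**Figure D1:**
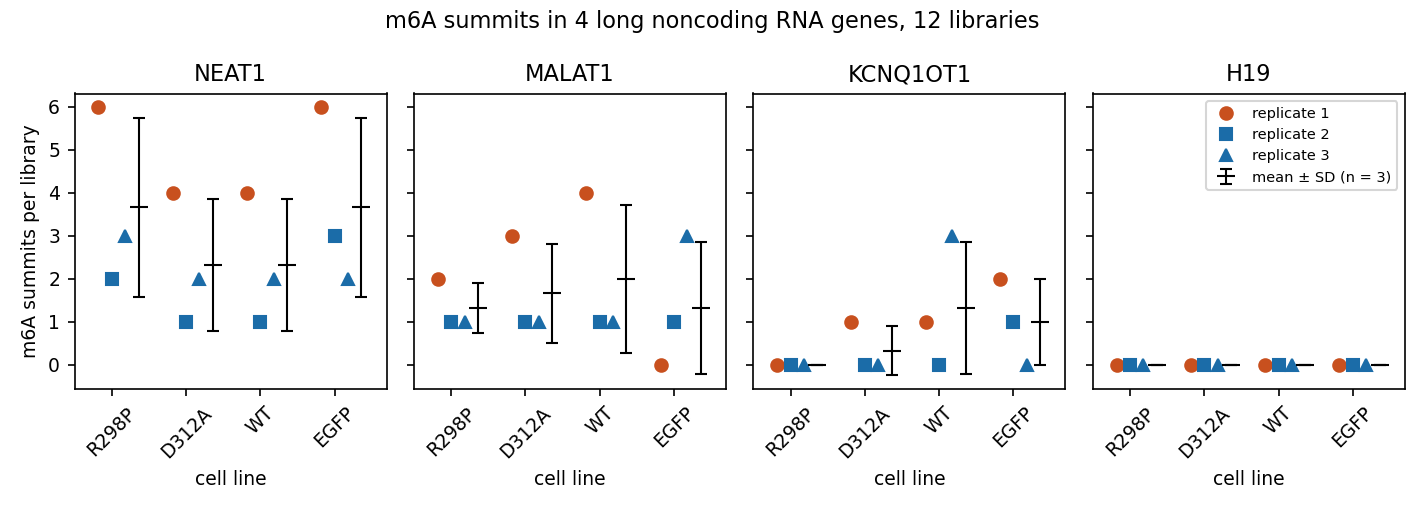
Number of m6A summits per library (vertical axis) in the spans of NEAT1, MALAT1, KCNQ1OT1 and H19 for the 4 lines (horizontal axis). Symbols mark replicates, orange is replicate 1, and bars show mean ± SD (n = 3). NEAT1 was highest in replicate 1 of every line, KCNQ1OT1 was at 0 in all R298P libraries, and H19 was at 0 throughout.

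All NEAT1 summits lay in the 5′ part of the gene, which both isoforms share. The first was 64 nt and the last 3250 nt from the start of the span, and the remaining 19492 nt held 0. The libraries were made from poly(A) RNA, and the long isoform does not end in a poly(A) tail. How well its own part was sampled is unknown, so the 0 does not show that it lacks m6A. Summits within 100 nt of each other were merged, which gave 8 regions. One region, at 65424402 to 65424483, was held by all 12 libraries, as were 9.91% of the 34313 regions of the series. A second, at the 5′ end (65422862 to 65422953), was held by 3 of 3 R298P, 2 of 3 D312A, 2 of 3 WT and 3 of 3 EGFP libraries. The replicates without it were D312A 2 and WT 2.

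Within the region common to all libraries the summit did not stand at 1 place. It was 1679 to 1685 nt from the start of the span in replicate 1 of the 4 lines. In replicate 2 of the 4 lines and in D312A replicate 3 it was at 1627 to 1628 nt. In replicate 3 of R298P, WT and EGFP it was at 1604 to 1605 nt. The 8 other libraries thus lay below replicate 1 by a gap of 51 nt, which is shorter than the fragments. Between replicates of 1 line, summits within 150 nt of each other differed in position by a median of 6.0 to 11.0 nt over 12 pairs of libraries. Summits of replicate 1 lay a median of only 1.0 to 5.0 nt downstream of their partners in the other replicates (8 pairs). The summit at this site was placed between 29.4% and 88.4% of the way down its list.

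The region at 65423158 to 65423181 was present in replicate 1 of R298P, D312A, WT and EGFP and in 0 of the 8 other libraries. Across the series 86 regions, or 0.251%, were distributed like that. The region at 65424974 to 65425035 was held by all 4 libraries numbered 1 and by R298P replicate 3. A further region, at 65424593 to 65424646, was seen in EGFP alone, in replicates 1 and 2. Of the rest, 2 regions were found in R298P replicate 1 alone and 1 in EGFP replicate 1 alone.

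**Figure D2:**
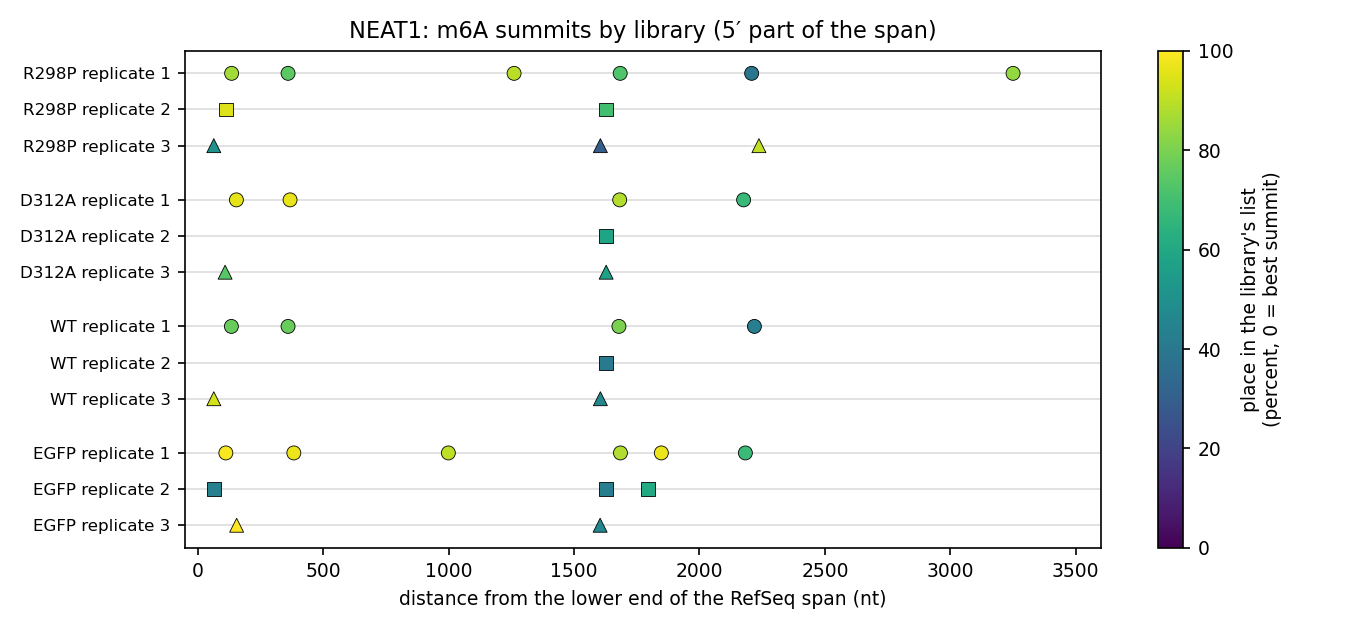
Position of each NEAT1 summit (horizontal axis, nt from the lower end of the RefSeq span, only the part with summits is drawn) in each library (rows). Circles, squares and triangles are replicates 1, 2 and 3, and the colour is the place of the summit in its own list. A site at 1604 to 1685 nt was present in all 12 libraries, displaced to the right in replicate 1.

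MALAT1 held fewer summits on a shorter gene. Its span (chromosome 11, 65497738 to 65506516, 8779 nt) held 19 summits in 11 of 12 libraries, which is 2.16 summits per kb over all lists together, against 1.58 for NEAT1. Among 905 lncRNA genes with a summit and no protein-coding span over them, these densities stood at percentiles 92.0 and 88.4, and the median was 0.103. Density was taken over the whole span, introns included. The median gene of the 905 held 1 summit, and 462 were held by 1 library only. By number of summits NEAT1 ranked 17 and MALAT1 57 of the 905.

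R298P libraries 1, 2 and 3 held 2, 1 and 1 MALAT1 summits. D312A libraries held 3, 1 and 1, WT libraries 4, 1 and 1, and EGFP libraries 0, 1 and 3. All lines overlapped, and EGFP replicate 1 was the only library with none. The means were 1.33 ± 0.577 in R298P, 1.67 ± 1.15 in D312A, 2.0 ± 1.73 in WT and 1.33 ± 1.53 in EGFP (SD, n = 3 each), so that WT was followed by D312A and then by R298P and EGFP, with every step inside the spread. R298P minus WT was -0.667 (exact permutation test, two-sided, p = 1.0) and 0.333 without WT replicate 1, which alone held 4. Lines accounted for 6.15% of the variance (exact test over partitions, p = 0.959, adjusted p = 1.0), and for 60.0% with lists of equal length, where only 2 summits were left (exact p = 0.182).

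MALAT1 summits gathered in 1 stretch of the gene. All but 2 of the 19 lay between 1947 and 2992 nt from the lower end of the span. RefSeq lists a second start 1307 nt into it, and the first summit was 640 nt beyond that start. The region held most often (65500458 to 65500488) was present in 1 of 3 R298P, 2 of 3 D312A, 2 of 3 WT and 2 of 3 EGFP libraries. It was found in 6 of the 8 libraries of replicates 2 and 3, and in 1 of 4 of replicate 1.

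A neighbouring region at 65500175 to 65500176 was present in 1 library of each line, with positions that differed by 1 nt: replicate 1 of R298P, D312A and WT, and EGFP replicate 3. One at 65500607 to 65500628 was held by 2 R298P, 0 D312A, 1 WT and 0 EGFP libraries. At the 3′ end, WT replicate 1 and EGFP replicate 3 had a summit 219 and 225 nt before mascRNA, a small RNA of 58 nt that is cut from the end of the MALAT1 transcript. No summit lay in mascRNA itself. All 19 MALAT1 summits also lie in the span of TALAM1, the antisense RNA of the locus, and the lists carry no strand.

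Most MALAT1 summits were weak in rank. The median summit was placed 88.5% of the way down its list, where that of NEAT1 was at 75.8% and that of KCNQ1OT1 at 55.0%, and the best, in D312A replicate 2, was at 48.8%. In lists of equal length MALAT1 had 1, 1 and 0 summits in D312A and 0 in the 9 libraries of the other lines. In the authors' deposited table MALAT1 was among the most abundant input RNAs: its mean log2 CPM (reads of a gene scaled to library size, on a log scale) was 10.3, and 47 of 42677 genes were higher. Its log2 fold change was -0.14, with the direction between WT and R298P not stated (edgeR, adjusted p = 0.601).

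**Figure D3:**
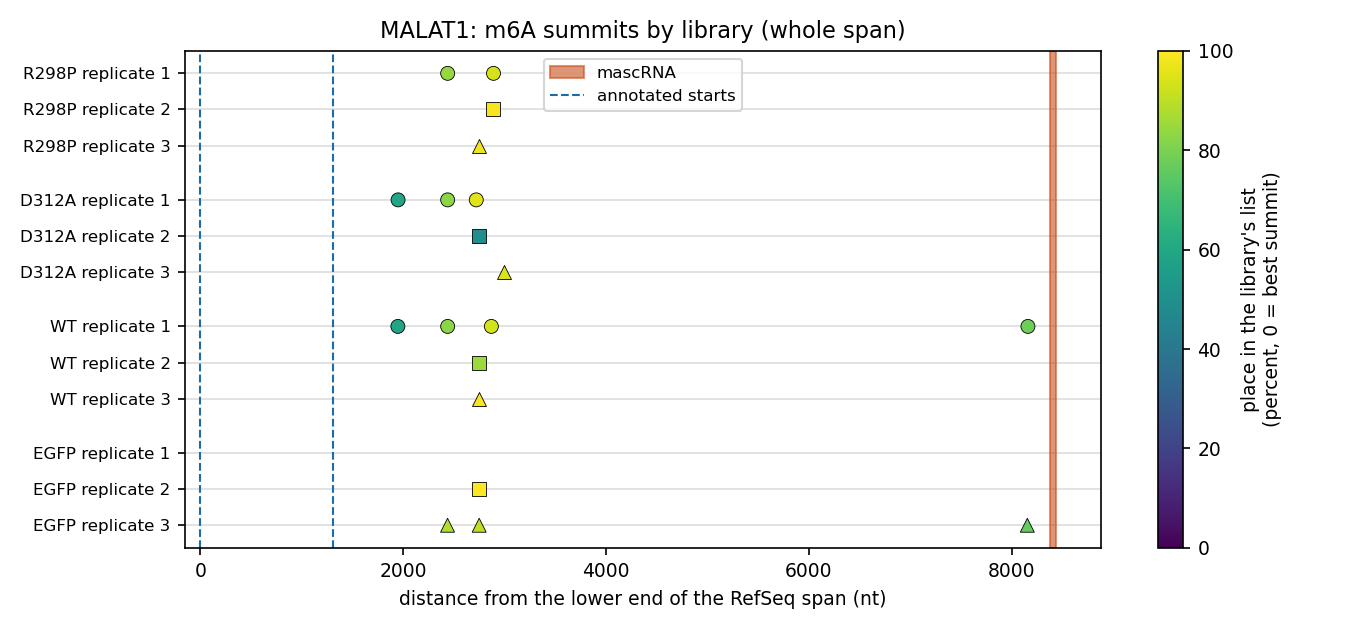
Position of each MALAT1 summit (horizontal axis, nt from the lower end of the RefSeq span) in each library (rows), coloured by its place in its own list. Dashed lines are the annotated starts and the orange band is mascRNA. Summits gathered between 1947 and 2992 nt, and 2 libraries had one just before mascRNA.

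The 4 libraries with more than 1 MALAT1 summit were R298P replicate 1, D312A replicate 1, WT replicate 1 and EGFP replicate 3. They held 31, 25, 33 and 16 summits on the mitochondrial genome, while the other 8 held between 0 and 8, apart from 31 in D312A replicate 2. The part of this difference between libraries in the MALAT1 values was not tested. Among the genes whose summit numbers over the 12 libraries were most like those of MALAT1 were HSPA5 and TNFAIP8L3 (Pearson r = 0.83 and 0.82; the median of 4883 genes with at least 12 summits was -0.01). For NEAT1 they were PGPEP1, GAB2 and AHCY (r = 0.92, 0.9 and 0.89, median of the genes 0.13). The correlation between NEAT1 and MALAT1 was 0.14. These correlations describe 12 libraries that share the division by replicate number, and rest on small whole numbers.

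KCNQ1OT1 had 0 summits in R298P. The span (chromosome 11, 2608328 to 2699994, 91667 nt) held 8 summits in 5 of 12 libraries. R298P libraries 1, 2 and 3 held 0, 0 and 0. D312A libraries held 1, 0 and 0, WT libraries 1, 0 and 3, and EGFP libraries 2, 1 and 0. Each other line had at least 1 library with none as well, so the lines overlapped.

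The means were 0.0 ± 0 in R298P, 0.333 ± 0.577 in D312A, 1.33 ± 1.53 in WT and 1.0 ± 1.0 in EGFP (SD, n = 3 each), in which no neighbours in order differed beyond their spread. R298P minus WT was -1.33 summits (exact permutation test, two-sided, p = 0.4, adjusted p = 1.0 over 11425 genes), and -0.5 without WT replicate 3, which held 3 of the 4 WT summits. With sign changes kept within replicate numbers, the exact p for R298P against WT was 0.5. R298P minus EGFP was -1.0 (exact p = 0.4), and R298P minus D312A was -0.333 (exact p = 1.0). Lines accounted for 31.2% of the variance (exact test over partitions, p = 0.455, adjusted p = 1.0). A gene held by 5 libraries with none of them R298P was not rare: of 486 genes held by exactly 5 libraries, 21.0% had no R298P library, 27.2% no D312A, 7.2% no WT and 10.1% no EGFP library.

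KCNQ1OT1 is transcribed against the direction of KCNQ1, a potassium channel gene, and lies inside its span, so its own start is at the upper end. All 8 summits lay between 25492 and 48659 nt from the lower end, and the 43007 nt next to the start had none. The site held most often was at 2633820 to 2633834, in D312A replicate 1, WT replicate 3 and EGFP replicates 1 and 2. The place of this summit in its list was 24.7% in the D312A library and 26.4% in the WT library. In EGFP replicates 1 and 2 it was 95.4% and 48.6%. The same site was thus in the upper part of some lists and near the end of another.

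A second site, at 2641687 to 2641718, was shared by WT replicate 3 and EGFP replicate 1. The other 2 were held by 1 WT library each. The rest of the KCNQ1 span, outside KCNQ1OT1, held 3, 2 and 1 summits in R298P, 4, 0 and 0 in D312A, 4, 2 and 3 in WT, and 3, 4 and 1 in EGFP. R298P libraries thus had summits elsewhere in KCNQ1 but none in KCNQ1OT1. WT replicate 2 and EGFP replicate 3 were alike in this, with 2 and 1 summits elsewhere and 0 in KCNQ1OT1. Without strand, methylation of KCNQ1OT1 and of unspliced KCNQ1 RNA cannot be told apart.

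Input RNA of KCNQ1OT1 was abundant. In the authors' deposited table its mean log2 CPM was 8.4, above NEAT1 at 7.82, which is a rank by reads and not per length; 383 of 42677 genes were higher. Its log2 fold change was -0.2 with the direction between WT and R298P not stated, which is 1.15-fold (edgeR, adjusted p = 0.532). The sources used here do not say whether reads were counted by strand. Genes most like KCNQ1OT1 in summit number were TPPP, UBALD1 and FAM200C (Pearson r = 0.89, 0.89 and 0.88 over 12 libraries, median of 4883 genes 0.21).

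**Figure D4:**
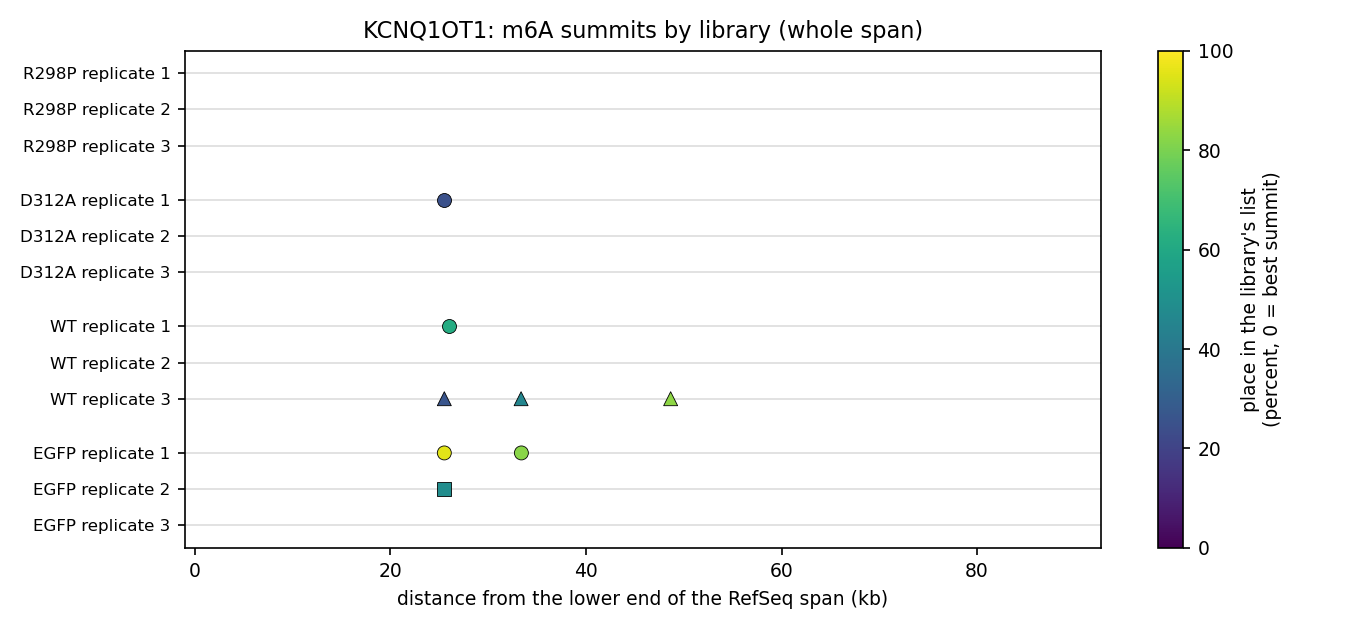
Position of each KCNQ1OT1 summit (horizontal axis, kb from the lower end of the RefSeq span; the RNA starts at the right) in each library (rows), coloured by its place in its own list. The 3 R298P rows are empty, and the site at the left was held by 4 libraries of the other lines.

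H19 held 0 summits in all 12 libraries, in a span of 6091 nt (chromosome 11, 1995176 to 2001266). Widening the span by 500 nt on each side added none. MRPL23, a mitochondrial ribosomal protein gene whose span covers H19, held 0 as well. In the authors' deposited table the mean log2 CPM of H19 was -2.38, where the lowest value of the table was -2.59 and the median -1.53, so the RNA was near the floor of the input libraries. Its log2 fold change of -0.85 (edgeR, adjusted p = 0.861, direction not stated) rests on a gene near that floor. IGF2, the growth factor gene with which H19 shares its enhancers, held 8, 1 and 3 summits in R298P, 6, 6 and 0 in D312A, 12, 3 and 0 in WT, and 3, 0 and 7 in EGFP. The absence of summits in H19 therefore does not extend to the locus as a whole.

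Over all 6 pairs of lines, 0 of the 3 genes with a summit had lines whose libraries did not overlap, and H19, at 0 throughout, could not be tested. Among all genes tested this held for 3.76% in R298P against WT, 3.34% in D312A against WT, 3.6% in R298P against EGFP, 3.13% in D312A against EGFP, 1.37% in WT against EGFP and 2.53% in R298P against D312A. By direction, the share higher in the line named first was 0.718%, 0.108%, 0.73%, 0.152%, 0.795% and 1.99% in the same order of pairs, and the share lower was 3.05%, 3.23%, 2.87%, 2.97%, 0.579% and 0.543%. With 3 libraries against 3 the smallest exact p is 0.1, so 0 genes passed at 0.05 with or without adjustment in any pair. Over all 4 lines, 331 of 12977 genes (2.55%) had an exact p under 0.05 for the share of variance and 0 had an adjusted p under it. None of the 4 lncRNAs was among the 331.

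Of the 18 regions in the spans of the members, 0 were present in 3 of 3 libraries of a line and 0 of 3 of another. In R298P against WT such regions made up 0.711% (gained) and 1.72% (lost) of all regions tested. The figures were 0.116% and 1.32% in D312A against WT, 0.787% and 1.56% in R298P against EGFP, and 0.168% and 1.17% in D312A against EGFP. They were 0.408% and 0.255% in WT against EGFP, and 1.47% and 0.366% in R298P against D312A. In the authors' deposited table of input RNA 0 of the 4 genes had an adjusted p under 0.05, as 2.74% of 42677 genes had (1.7% under 0.01).

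Other lncRNAs were examined beside the members. Of 32 further nuclear, host or liver lncRNAs 12 held a summit and 7 held one in all 12 libraries. SNHG14, a host of small nucleolar RNAs in an imprinted domain, had 106 summits over the lists, TUG1 102, LINC00261 43 and FTX 40. Each span was counted whole, whatever other genes lie in it, and the lists carry no strand. Among the 905 lncRNA genes with a summit and no protein-coding span over them the highest number was 96. SNHG14 and TUG1 were not in that set, and their summits cannot be assigned to the lncRNAs alone. TUG1 held 7, 6 and 9 in R298P and 8, 11 and 9 in WT. MEG3, GAS5 and HULC, a lncRNA first described in liver cancer, held 0. In R298P against WT the libraries of 1 of the 12 did not overlap: FIRRE, named after its values were seen, held 1, 1 and 1 in R298P and 2, 2 and 2 in WT. Over all genes 3.05% were lower in R298P in this way and 0.718% higher. FIRRE also held fewer in D312A, with 1, 1 and 0, against the same WT libraries.

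Of 18 other imprinted genes 12 held a summit, with 56 in PEG10, 49 in IGF2, 40 in GNAS and 40 in PEG3. In R298P against WT 0 of the 11 tested were apart, where 3.76% of all genes were, with a median difference of -0.333 summits beside 0.0 over all genes. PEG10 held 12, 0 and 1 in R298P and 10, 2 and 0 in WT, so the spread inside a line was wider than the step between lines. CDKN1C and PHLDA2, imprinted growth restrainers beside KCNQ1OT1, held 0 in all libraries.

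Proteins that meet these RNAs in the nucleus had m6A of their own. Of 16 paraspeckle proteins 15 held a summit, among them EWSR1 with 30, TAF15 with 28 and CPSF6 with 21. NONO, which with NEAT1 forms the core of the paraspeckle, held 3. In R298P against WT, TAF15 had 2, 2 and 1 summits in R298P and 3, 3 and 3 in WT and was the only one of 15 set apart, with 0 higher; of all genes 3.05% were lower and 0.718% higher. Of 14 speckle proteins 10 held a summit, led by SON, the speckle scaffold, with 82, and 0 of 10 were apart in R298P against WT, where 3.76% of all genes were. Their median difference was -0.5 summits, beside 0.0 over all genes. SON held 5, 4 and 6 in R298P and 9, 8 and 6 in WT.

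All 5 m6A readers examined held a summit, RBMX only 1 in 1 library. YTHDC1, the nuclear reader of the YTH family, had 2, 4 and 4 in R298P and 3, 3 and 5 in WT. HNRNPC, which binds MALAT1 beside its m6A, had 1, 0 and 0 in R298P and 1, 0 and 0 in WT. Among the 4 tested, only YTHDC2 was set apart, with 0 in each R298P library and 1 in each WT library, where 3.05% of all genes were lower in R298P and 0.718% higher. In D312A against WT, FIRRE was the only gene set apart among the members of these 5 lists, where 3.23% of all genes were lower in D312A and 0.108% higher.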

How the data were processed

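The authors deposited 1 summit list per immunoprecipitated library and 1 table for WT and R298P input. Per the submitters' processing notes the tools included STAR 2.7.9a, MACS2 2.1.2, featureCounts and edgeR, on hg38, with settings not given in the sources used here. The value of each deposited summit was read, from its range (lists start between 5.0 and 5.026), as a −log10 p or q value; it ranked summits within a list. The authors' table gives, per the file headers, log2 values (a fold change and a mean CPM), a p-value with its adjusted form, and the score of a likelihood ratio test; its rows were found by Ensembl identifier. Its 18 columns of single libraries could not be matched to samples by any label and were not used. The planned choice of named genes by that table was made for the members alone.

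Summits (1-based) were counted over each whole RefSeq span (GRCh38.p14) with Python 3.11.15 and numpy 2.4.6, and merged into regions within 100 nt. Lines were compared by two-sided exact permutation tests over 20 assignments and over 15400 partitions, for every gene with a summit and with Benjamini-Hochberg adjustment, after tests on simulated data. Read depth is unknown, so no counting interval was set. The 4 genes and all lists were chosen with earlier results of these data known. Named genes were the members, their neighbours, the 3 genes most like each, and up to 4 per list with the most summits, of which a few are not reported here; the others were named after their values were seen. Deviations of same-numbered libraries from their line means correlated at 0.452, 0.176 and 0.2 between R298P and WT, which meets the rule for pairing (over 0.1 for each number). The other 5 pairs of lines did not meet it (-0.29 to 0.375 over all); replicate 1 was positive in all 6. Pairwise tests ignored replicate numbers unless stated, and so did the counts of genes whose libraries did not overlap, in R298P against WT too. The labels name no shared batch or day.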

Additional observations from a re-analysis of the deposited data

How the results depend on the processing

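Pairwise tests could not reach 0.05 under any setting (smallest exact p 0.1, or 0.25 with the block), so only sizes and directions are compared here. Among the members 0 regions were gained or lost with lists of equal length, values of at least 10, or merging within 50 or 200 nt; 0 of the 4 genes passed in the authors' deposited table at 0.01. Of the recomputed values 38 went to or left 0, 13 reversed and 263 did neither. The differences in H19, at 0 under every setting, could only fall among the 263. The cause of the changes was not tested. With lists of equal length the difference in MALAT1 was 0.0 in R298P minus WT, 0.667 in D312A minus WT and 0.0 in WT minus EGFP, and that in KCNQ1OT1 was 0.0 in D312A minus EGFP. With values of at least 10, MALAT1 gave 0.333 in D312A minus WT, -0.333 in R298P minus EGFP and 0.0 in WT minus EGFP; NEAT1 gave 0.333, -0.333 and, in R298P minus D312A, 0.0; and KCNQ1OT1 gave 0.0 in D312A minus EGFP. Within replicates 2 and 3 (added after the data were seen), MALAT1 gave 0.0 in R298P minus WT, D312A minus WT and R298P minus D312A, and -1.0 in all 3 differences from EGFP; KCNQ1OT1 gave 0.0 in R298P minus D312A. Within replicate 1 MALAT1 gave 2.0 in R298P minus EGFP, and KCNQ1OT1 gave 0.0 in D312A minus WT and -1.0 in WT minus EGFP.

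Leaving out single libraries, MALAT1 ranged from -1.17 to 0.333 in R298P minus WT, -1.0 to 0.667 in D312A minus WT, -0.667 to 0.833 in R298P minus EGFP, -0.333 to 1.17 in D312A minus EGFP, -0.333 to 1.5 in WT minus EGFP and -0.667 to 0.333 in R298P minus D312A. NEAT1 ranged from -0.833 to 0.833 in D312A minus WT, -1.17 to 1.17 in R298P minus EGFP, 0.167 to 2.17 in R298P minus WT and minus D312A, and -2.17 to -0.167 in D312A and WT minus EGFP. KCNQ1OT1 ranged from -0.5 to 1.0 in WT minus EGFP and -0.5 to 0.0 in R298P minus D312A. Leaving out a replicate number, the share of variance between lines ranged from 10.7% to 42.9% in MALAT1, 17.0% to 50.0% in NEAT1 and 37.5% to 61.3% in KCNQ1OT1; with lists of equal length it was 60.0%, 5.88% and 14.3%, and with values of at least 10 it was 25.0%, 14.3% and 32.2%. With the replicate number as a block, NEAT1 in R298P minus WT was 1.33 with an exact p = 0.25, and the share of variance in NEAT1 had an exact p = 0.0833 over 576 partitions. Merging within 50 nt splits the NEAT1 site common to all libraries at its 51 nt gap.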
